A study of Mus musculus with 14 samples.

Results

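The genes described here encode 45 proteins of pre-mRNA splicing: 7 Sm proteins, 5 SR proteins, 12 hnRNPs and 21 other factors (proteins of the U1, U2 and U5 small nuclear ribonucleoproteins, U2AF, PRP19, helicases, a kinase and RNA-binding regulators). Members were taken by gene symbol from the annotation of the Affymetrix mouse whole-genome array, and where a gene had several probe sets, the one brightest on average across the arrays stood for it. A probe set of its own was found for 41 of the 45, among 18193 genes with one: 5 Sm proteins, 4 SR proteins, 12 hnRNPs and 20 other factors. Snrpd1, Snrpd2 and Snrpa lay only on probe sets that the annotation also gives to other loci, and no probe set was named for Srsf7, so no value is given for these 4. RNA came from pooled whole lungs of ICR mice, untreated, at embryonic days 12, 14, 16 and 18 (E12, E14, E16, E18), postnatal days 2 and 10 (P2, P10) and postnatal day 30 (Adult), with 2 arrays at each of the 7 time points. The day of the vaginal plug was day 0, and all samples are labelled female. The number of lungs in a pool is not given in the sources used here, nor whether the 2 arrays of a time point came from separate pools. Each p therefore measures the spread between these arrays, which may be technical.

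Splicing removes introns from pre-mRNA and joins the exons. The spliceosome that does this is built on each intron from small nuclear RNAs, each wrapped with proteins into a small nuclear ribonucleoprotein (snRNP): U1 marks the 5′ splice site, U2 the branch point, and U4, U5 and U6 join for catalysis. Sm proteins form the ring that holds the U1, U2, U4 and U5 RNAs, SR proteins bind exons and promote the use of nearby splice sites, and many hnRNPs coat the transcript and often oppose the SR proteins. These genes are expressed in most cell types. In the lung, the period covered runs from branching of the airways through formation of saccules before birth to formation of alveoli after it.

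Array values are on a log2 scale, on which a difference of 1 is a 2-fold change. The array medians over all probe sets lay between 6.55 and 6.62, and the correlation between the 2 arrays of a time point lay between 0.9953 and 0.9977 across probe sets. The highest time-point mean of a gene is called Max here, and genes with a Max above 7 are called measured: 11663 genes in all, among them all 41 members with a probe set. The 2 arrays of E16 differed from each other: the summed linear signal of 8 heart muscle markers was 16640 in E16 replicate 1 and 2430 in E16 replicate 2, and 35 of the 41 members (85.4%) had the lower value in replicate 1, as had 52.5% of measured genes. The sex-linked genes went against the female label: Xist, the RNA of the inactive X chromosome, read 7.26 and 7.34 at P2 and 7.41 and 6.88 at P10, but between 11.97 and 13.32 in the embryonic and adult arrays. The Y-linked Eif2s3y read 7.24 and 7.59 at E12, 6.95 and 7.02 at E14, 7.14 and 3.13 at E16, 7.65 and 8.10 at E18, 8.61 and 8.50 at P2, 8.35 and 8.47 at P10, and 3.60 and 2.86 in Adult, and Kdm5d, also Y-linked, read 6.71 and 3.49 at E16. The 2 arrays of E16 thus differed in Y-linked signal too, with replicate 2 near the Adult level. Sex makeup and time point cannot be told apart here. The markers of lung epithelium, such as Nkx2-1 and Sftpc, were measured (7 of 7 with Max above 7), and 1 of 5 liver markers was.

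To show what lies before these genes, promoters (250 bases before to 50 after the start, RefSeq, GRCm38.p6) were searched on both strands for short motifs; 37 of the 41 members and 9434 measured genes had an entry. The CCAAT box of NF-Y was in 22 member promoters (59.5%) and in 38.3% of those of measured genes, and the ETS core CCGGAA was in 17 (45.9%) and 28.2%. The E2F motif (TTTCCCGC or TTTGGCGC) was in 5 (13.5%) and 3.2%, the NRF1 motif GCGCATGC in 2 (5.41%) and 5.46%, and the YY1 motif AAGATGGC in 1 (2.7%) and 4.75%. The GC box GGGCGG was in 56.8% and 65.2%, the E-box CACGTG in 8.11% and 10.3%, and TATAAA in 16.2% and 7.07%. The motifs could overlap one another. Below are the promoters of Snrpf and Snrpd3, which had the largest falls by brightest probe set, of Srsf10, which held the most E2F matches, and of Sf3b1. Sf3b1 was one of the least changed members by its brightest probe set, but its 4 probe sets ran from −1.07 to −0.45 for Adult minus E12. None of the first 5 motifs was found in its promoter. Capitals mark matches to the CCAAT box, ETS core, E2F, NRF1 and YY1 motifs on either strand.
Snrpf, chr10:93589609-93589908, minus strand: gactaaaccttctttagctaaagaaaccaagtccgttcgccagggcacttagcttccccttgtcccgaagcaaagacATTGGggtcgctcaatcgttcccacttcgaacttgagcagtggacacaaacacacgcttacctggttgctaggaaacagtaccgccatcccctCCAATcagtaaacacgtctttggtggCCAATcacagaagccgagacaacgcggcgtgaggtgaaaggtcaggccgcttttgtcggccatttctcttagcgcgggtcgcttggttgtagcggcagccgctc
Snrpd3, chr10:75517792-75518091, plus strand: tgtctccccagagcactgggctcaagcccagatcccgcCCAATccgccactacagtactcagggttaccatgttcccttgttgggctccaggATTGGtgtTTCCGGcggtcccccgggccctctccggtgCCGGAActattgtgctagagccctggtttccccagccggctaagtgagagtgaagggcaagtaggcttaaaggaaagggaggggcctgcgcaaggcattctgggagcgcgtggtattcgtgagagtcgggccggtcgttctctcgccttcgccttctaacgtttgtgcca
Srsf10, chr4:135855821-135856120, plus strand: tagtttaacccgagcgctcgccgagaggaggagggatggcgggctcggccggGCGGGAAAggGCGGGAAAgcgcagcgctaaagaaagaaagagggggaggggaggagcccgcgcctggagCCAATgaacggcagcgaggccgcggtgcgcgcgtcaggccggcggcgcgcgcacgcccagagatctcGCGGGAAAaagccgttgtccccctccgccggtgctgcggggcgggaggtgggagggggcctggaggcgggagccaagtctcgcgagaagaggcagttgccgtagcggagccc
Sf3b1, chr1:55027429-55027728, minus strand: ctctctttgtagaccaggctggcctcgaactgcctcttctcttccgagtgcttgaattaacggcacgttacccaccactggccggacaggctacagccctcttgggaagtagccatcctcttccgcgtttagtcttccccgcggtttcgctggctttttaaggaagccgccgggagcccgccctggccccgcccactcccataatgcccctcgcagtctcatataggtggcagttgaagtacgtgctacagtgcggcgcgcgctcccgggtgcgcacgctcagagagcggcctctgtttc
Snrpf held 3 CCAAT boxes, 2 as CCAAT and 1 on the other strand, and Snrpd3 held 2 CCAAT boxes and 2 ETS cores. Srsf10 held 3 E2F matches and 1 CCAAT box. Snrpa1, Syncrip, Hnrnpm and Rbm25 also held none of the first 5 motifs, with Adult minus E12 at −1.98, −1.86, −1.54 and −0.93. Sf3b2, the least changed member by its brightest probe set (−0.34), held 1 ETS core and 1 CCAAT box. A match describes the letters of the window only, and a link between motifs and falls was not tested.

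Read on their brightest probe sets, all 41 measured members were lower in Adult than at E12. A median of 56.9% of the fall came between E16 and E18. That share ran from 4.3% (Sf3b2) to 97.9% (Srsf2) and was not taken over all measured genes. Snrnp70, Srsf2 and Ptbp1 each had another probe set that did not fall from E12 to Adult (0.36, 0.08 and 0.14). Adult minus E12 was negative and passed the test (adjusted p under 0.05) in 41 of 41, with 0 higher. Of measured genes, 42.5% were lower and 39.5% higher. The members were chosen with earlier results of these data known, so the gap between these shares is no independent test. The median difference of the members was −1.35, with a range from −2.35 (Snrpf) to −0.34 (Sf3b2), and that of measured genes was −0.04. A fall larger than 1.2 with a higher mean above 7 was seen in 23 members and in 15.4% of measured genes. Both Adult arrays lay below both E12 arrays in 41 members, and in 47.4% of measured genes. Across the 7 time points, all 41 differed by the F test (91.9% of measured genes), and 25 of 41 were dynamic, which also required Max above 7 and a range of time-point means above 1.2; 41.7% of measured genes were dynamic. The median member ranged over 1.38 between its highest and lowest time point, and 36 of 41 had a correlation with the order of time points of −0.8 or lower, as had 31.2% of measured genes.

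The summed linear signal of 15 dividing-cell genes, such as Mki67 and Top2a, moved with the members: 55010 and 56110 at E12, 56080 and 54490 at E14, 44880 and 47890 at E16, 8984 and 9827 at E18, 14860 and 14750 at P2, 11350 and 13660 at P10, and 5998 and 5138 in Adult. All 15 were lower in Adult than at E12 (median difference −4.34) and lower at E18 than at E16 (median −2.53). Over the same span the sum of 7 leukocyte markers was 35590 and 37870 in Adult and 1535 and 1573 at E12, and that of 6 red blood cell markers was 1828 and 867.2 in Adult and 27490 and 27060 at E12. At E12 the red blood cell sum was carried by the embryonic globins such as Hbb-y, which read 4.24 and 3.69 in Adult and 14.31 and 14.24 at E12, while Alas2, of haem synthesis, read 10.53 and 9.37 in Adult and 8.22 and 8.31 at E12. The part of these cells in the results was not tested, and in whole lung fewer cells of a type and less RNA per cell cannot be told apart.

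**Figure D1:**
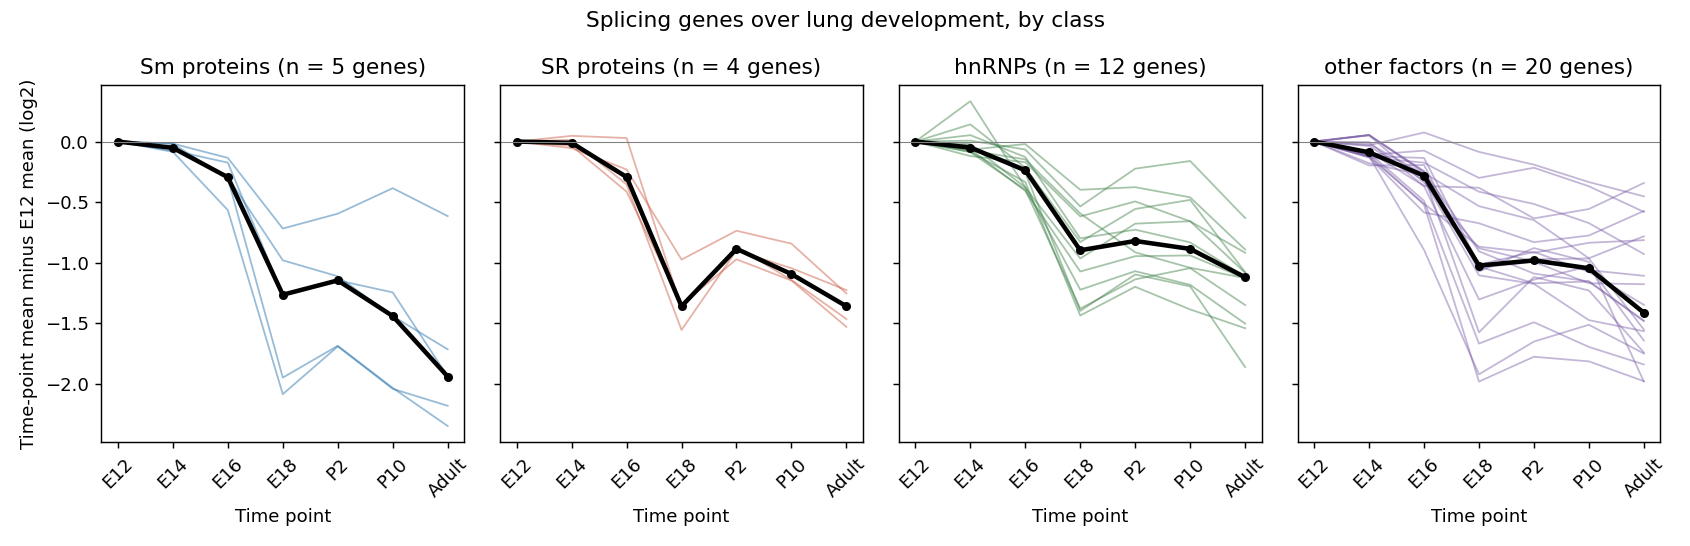
Time-point means of each measured splicing gene minus its E12 mean (log2, vertical axis) across the 7 time points (horizontal axis), in 4 classes; thin lines are genes and the black line is the class median. Each class stayed near its E12 level at E14 and dropped between E16 and E18, and the SR median at P2 lay above that at E18.

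The step from E16 to E18 held the largest fall of 33 of the 41 members. This count, and the percentage of a gene's fall in this step, were not taken over all measured genes. E18 was lower than E16 in 35 members and higher in 0, with 6 not passing; among measured genes 30.7% were lower and 33.1% higher. The median difference was −0.75 (range −1.65 to −0.01), against 0.03 for measured genes, and a median of 56.9% of the E12-to-Adult difference lay in it. Both E18 arrays lay below both E16 arrays in 39 of 41 members (40.9% of measured genes). A fall larger than 1.2 was seen in 6 members, with 4.79% of measured genes: Snrpf, Snrpd3, Snrpa1, Srsf3, Dhx9 and Srsf2. Without E16 replicate 1, 35 members were lower and the median was −0.81, and without E16 replicate 2, 34 were lower and the median was −0.67. The 6 that did not pass on their brightest probe sets were Snrnp70, Sf3b1, Sf3b2, Prpf8, Prpf4b and Rbm25. Over its probe sets with Max above 7, Sf3b1 ran from −0.85 to −0.16 and Sf3b2 from −0.55 to −0.01. Rbm25 ran from −0.70 to −0.24, Prpf4b from −0.84 to −0.04 and Snrnp70 from −0.32 to 0.66. Adult was the lowest time point of 32 members (30% of measured genes), E18 of 5 (Snrpb, Srsf2, Hnrnpu, Snrpa1 and Eftud2; a share close to the 10% of measured genes), P2 of 3 (Sf3b2, U2af2 and Prpf8; 4.81%) and P10 of 1 (Snrnp70; 8.87%).

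**Figure D2:**
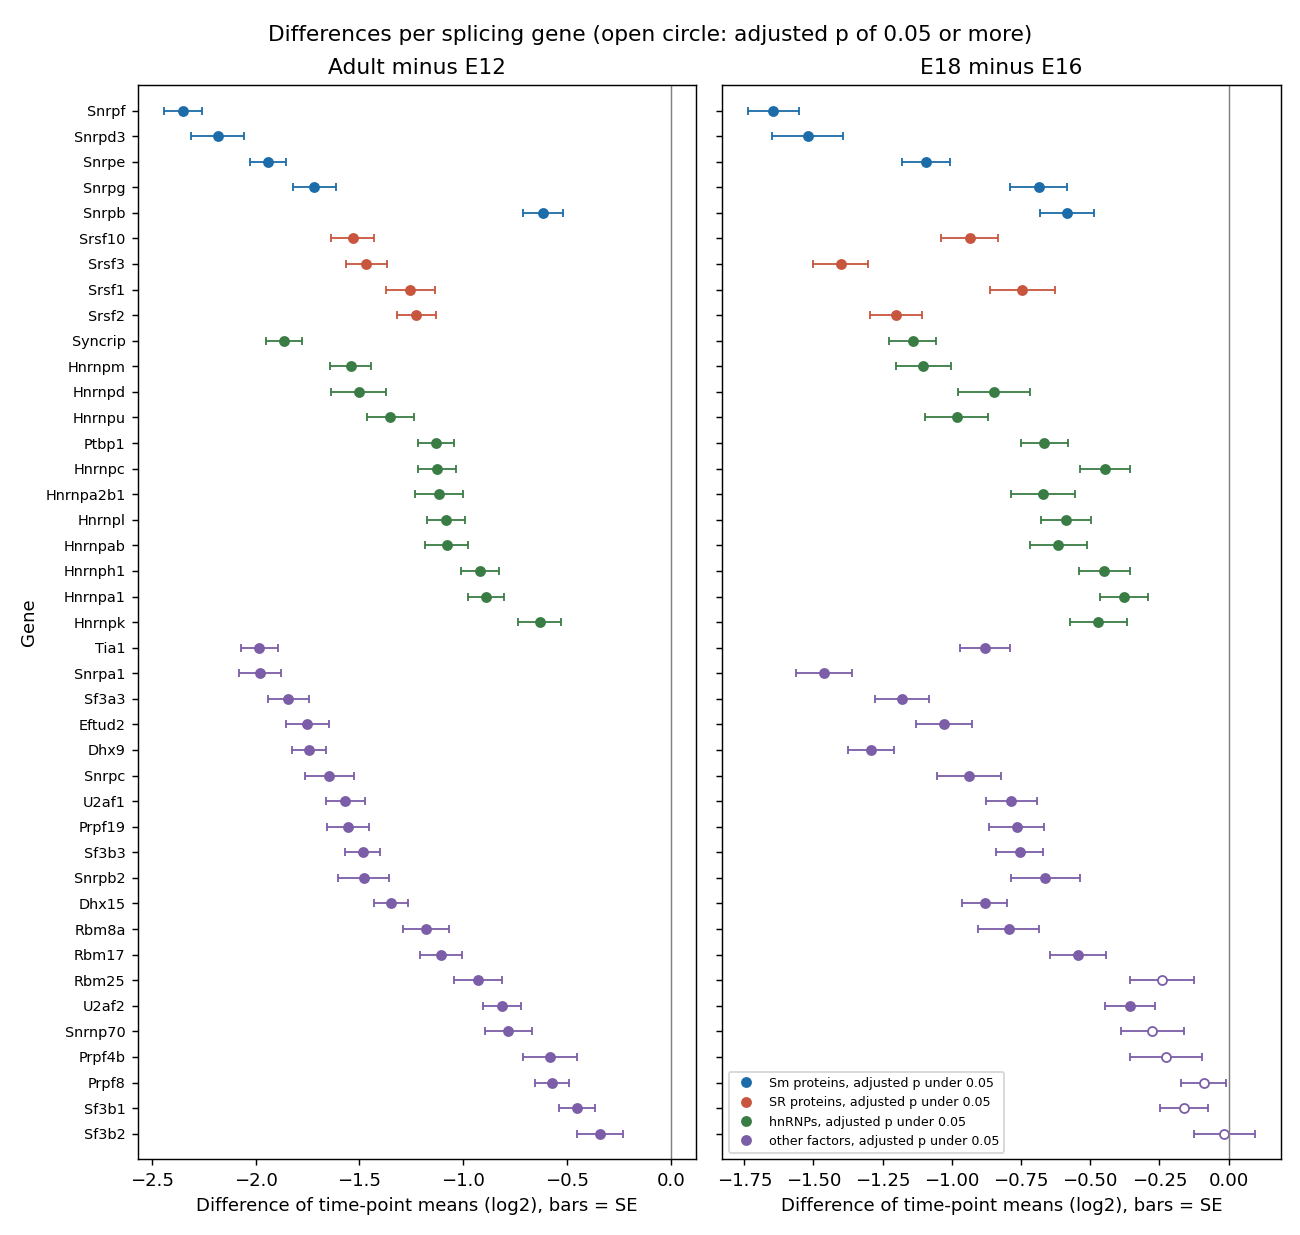
Adult minus E12 (left) and E18 minus E16 (right) in log2 for each of 41 splicing genes, with SE from the fit as bars and colour for class; open circles had an adjusted p of 0.05 or more. All points on the left lie below 0, from −2.35 for Snrpf to −0.34 for Sf3b2, and the 6 open circles on the right are all other factors. Each gene is shown by its brightest probe set only.

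On brightest probe sets, the Sm proteins had the largest median fall of the 4 classes (Adult minus E12, −1.94 over 5 genes) and also spread widely, from −2.35 to −0.62. Snrpf, which encodes SmF of the Sm ring, read 10.26 and 10.08 at E12, 10.13 and 10.18 at E14, 9.80 and 9.93 at E16, 8.19 and 8.25 at E18, 8.48 and 8.49 at P2, 8.15 and 8.12 at P10 and 7.77 and 7.87 in Adult. Both E18 arrays lay below both E16 arrays, and the Adult arrays were the lowest of all 14. The difference was −2.35 ± 0.09 for Adult minus E12 (SE from the fit, adjusted p = 7.45e-11), a 5.1-fold lower level, and −1.65 ± 0.09 for E18 minus E16 (adjusted p = 1.47e-08). Snrpd3, encoding SmD3, read 11.73 and 11.80 at E12, 11.65 and 11.71 at E14, 11.07 and 11.33 at E16, 9.53 and 9.82 at E18, 10.17 and 9.98 at P2, 9.86 and 9.58 at P10 and 9.58 and 9.58 in Adult. It was low from E18 on, and the Adult arrays lay within the range of those at E18. Adult minus E12 was −2.18 ± 0.13 (adjusted p = 3.7e-09), and 69.6% of it lay between E16 and E18. The other 2 probe sets of Snrpd3, both dimmer, had smaller differences of −0.91 and −0.53 for Adult minus E12. Snrpe, encoding SmE, read 12.88 and 12.85 at E12, 12.79 and 12.79 at E14, 12.70 and 12.68 at E16, 11.57 and 11.63 at E18, 11.68 and 11.75 at P2, 11.53 and 11.70 at P10 and 10.89 and 10.95 in Adult. This gene fell in 2 steps, by 1.09 between E16 and E18 (adjusted p = 3.32e-07) and by 0.70 between P10 and Adult (adjusted p = 4.5e-05), with no arrays overlapping in either. Snrpg, encoding SmG, was lower in Adult by 1.72 (SE 0.10) and at E18 by 0.69 (SE 0.10). Snrpb, encoding the SmB and SmB′ proteins, read 12.14 and 12.12 at E12, 12.12 and 12.10 at E14, 12.01 and 11.97 at E16, 11.38 and 11.43 at E18, 11.55 and 11.51 at P2, 11.64 and 11.84 at P10 and 11.61 and 11.41 in Adult. It changed least of the class: −0.62 ± 0.10 for Adult minus E12 (adjusted p = 7.08e-05) and −0.58 ± 0.10 for E18 minus E16 (adjusted p = 0.000244), and its Adult and P2 arrays overlapped. Snrpb, Snrpe and Snrpg were read on probe sets with the suffix _s_at, which may hybridise with more than 1 transcript. The same holds for Srsf2, Hnrnpu and Dhx9 in the other classes, and Hnrnpab and Prpf19 were read on probe sets with the suffix _x_at.

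The 4 measured SR proteins dropped between E16 and E18 and were partly back at P2. Of these, 3 of 4 were higher at P2 than at E18 (Srsf2, Srsf3 and Srsf10). That held for 0 of 5 Sm proteins, 2 of 12 hnRNPs and 1 of 20 other factors. Among 19 other SR family proteins and kinases outside the members, 1 was higher and 1 lower at P2 than at E18 (median −0.13). Across all members 6 of 41 were higher at P2 and 1 lower, set beside 11.5% of measured genes higher and 14.1% lower, so the share that rose was close to that of all measured genes. Srsf2, formerly SC35, an exon-binding splicing activator, read 12.74 and 12.62 at E12, 12.70 and 12.69 at E14, 12.24 and 12.41 at E16, 11.19 and 11.06 at E18, 11.78 and 11.78 at P2, 11.69 and 11.58 at P10 and 11.47 and 11.44 in Adult. Its E18 arrays were the lowest of all 14. E18 minus E16 was −1.20 ± 0.09 (adjusted p = 2.94e-07), and P2 minus E18 was 0.66 ± 0.09 (adjusted p = 0.000387). Adult minus E18 was 0.33 ± 0.09 (adjusted p = 0.0146), and Srsf2 was the only member higher in Adult than at E18 (22.6% of measured genes were). This rise in Adult over E18 depended on single arrays and on the probe set used, as given at the end. Srsf3, the smallest SR protein, read 12.76 and 12.63 at E12, 12.69 and 12.80 at E14, 12.65 and 12.80 at E16, 11.26 and 11.39 at E18, 11.79 and 11.86 at P2, 11.48 and 11.62 at P10 and 11.26 and 11.20 in Adult. The E12 to E16 arrays overlapped, all above the later ones; E18 minus E16 was −1.40 ± 0.10 (adjusted p = 1.09e-07) and P2 minus E18 was 0.50 ± 0.10 (adjusted p = 0.00375). Srsf10, an SR protein that acts as a repressor when dephosphorylated, read 11.08 and 10.99 at E12, 10.89 and 11.10 at E14, 10.52 and 10.72 at E16, 9.68 and 9.69 at E18, 10.09 and 10.03 at P2, 9.81 and 9.96 at P10 and 9.45 and 9.55 in Adult. Its arrays at P2 lay between those at E16 and those at E18. Adult minus E12 was −1.53 ± 0.10 (adjusted p = 1.62e-08), the largest of the class, and P2 minus E18 was 0.38 (adjusted p = 0.0262). Srsf1, the SR protein first named SF2, read 12.95 and 12.82 at E12, 12.86 and 12.80 at E14, 12.59 and 12.72 at E16, 12.02 and 11.80 at E18, 12.10 and 12.20 at P2, 11.90 and 12.19 at P10 and 11.55 and 11.71 in Adult. Its P2 arrays lay above both E18 arrays, but P2 minus E18 (0.24) had an adjusted p of 0.207. Adult minus E12 was −1.26 ± 0.12 (adjusted p = 4.38e-07). The dividing-cell genes also moved at this step, 11 of 15 higher at P2 than at E18 (median 0.57).

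**Figure D3:**
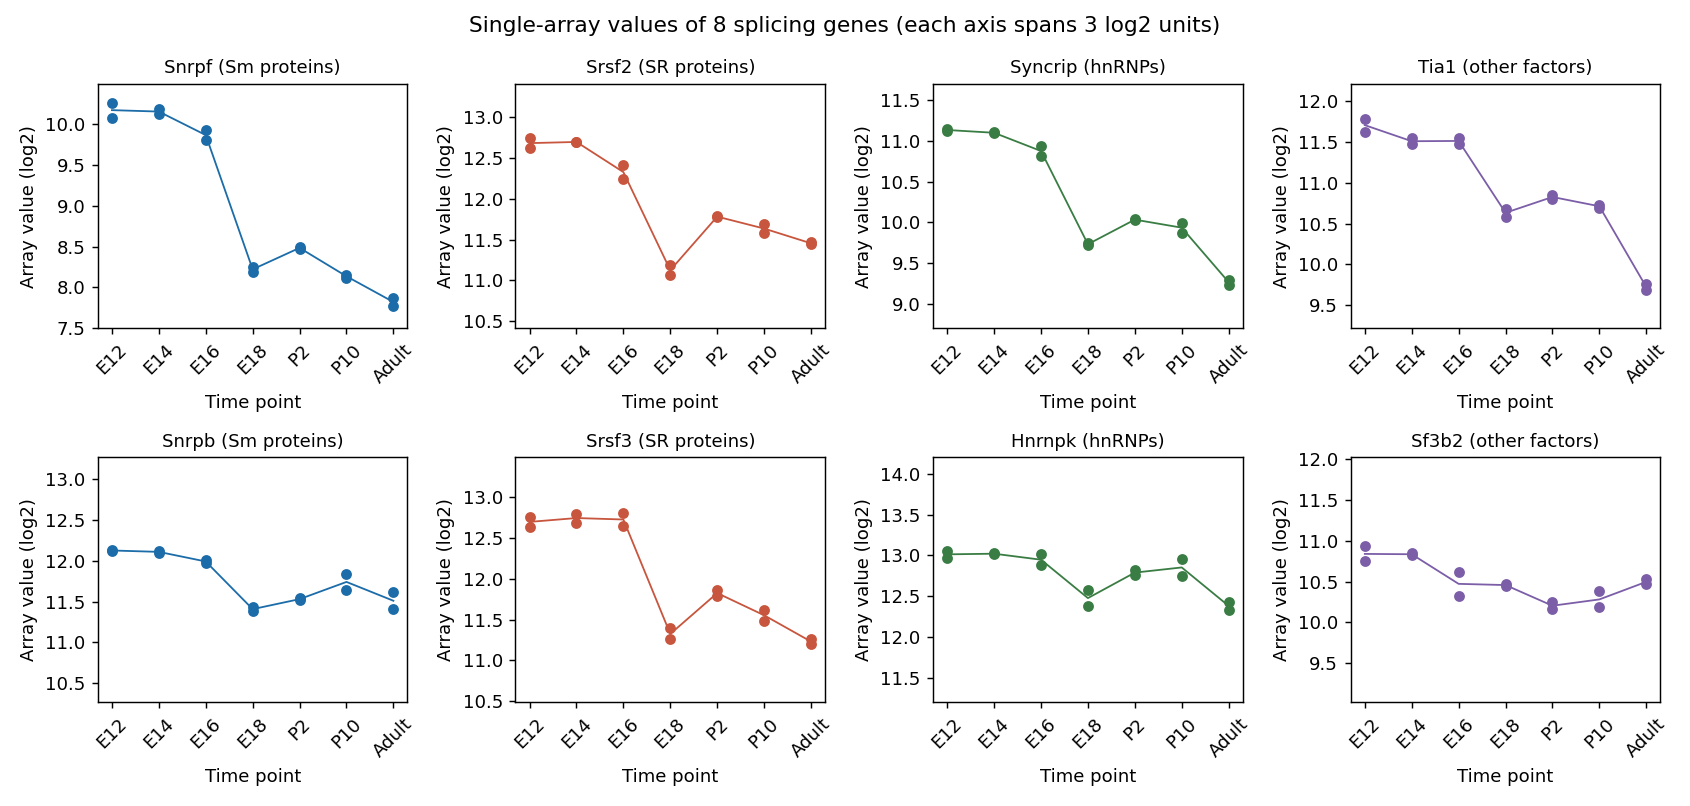
Single-array values (log2, vertical axis, each spanning 3 units) of 8 splicing genes at the 7 time points (horizontal axis), as points for the 2 arrays of a time point and lines through their means. Snrpf has its largest fall from E16 to E18 and Tia1 from P10 to Adult, Srsf2 and Srsf3 lie higher at P2 than at E18, and Sf3b2, on the probe set shown, has an Adult minus E12 difference of −0.34.

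On brightest probe sets, the 12 hnRNPs had the smallest median fall of the 4 classes (−1.12 for Adult minus E12), all 12 passing. The order of the classes was not taken on other probe sets. Syncrip, encoding hnRNP Q, read 11.15 and 11.12 at E12, 11.09 and 11.10 at E14, 10.81 and 10.94 at E16, 9.72 and 9.74 at E18, 10.04 and 10.03 at P2, 9.87 and 10.00 at P10 and 9.30 and 9.24 in Adult. Adult arrays lay below all others, and the difference from E12 was −1.86 ± 0.09 (adjusted p = 3.21e-10). It fell at both E16 to E18 (−1.14) and P10 to Adult (−0.67, adjusted p = 5.8e-05) and rose between (P2 minus E18, 0.30, adjusted p = 0.0306). Hnrnpm, a splicing regulator, read 11.51 and 11.33 at E12, 11.29 and 11.39 at E14, 11.07 and 11.11 at E16, 10.01 and 9.96 at E18, 10.19 and 10.26 at P2, 10.11 and 9.96 at P10 and 9.79 and 9.97 in Adult. The E18, P10 and Adult arrays overlapped, and Adult minus E12 was −1.54 ± 0.10 (adjusted p = 1.07e-08). Hnrnpd, which encodes AUF1, a factor of mRNA decay as well as splicing, read 11.81 and 11.43 at E12, 12.00 and 11.91 at E14, 11.07 and 11.42 at E16, 10.40 and 10.39 at E18, 10.50 and 10.60 at P2, 10.43 and 10.45 at P10 and 10.10 and 10.13 in Adult. Its E14 arrays were its highest, and the step to E16 of −0.71 ± 0.13 (adjusted p = 0.00237) was larger in size than in other hnRNPs. Hnrnpc, a component of the particle that coats nascent transcripts, read 13.16 and 13.20 at E12, 13.11 and 13.11 at E14, 12.97 and 13.10 at E16, 12.56 and 12.61 at E18, 12.31 and 12.22 at P2, 12.17 and 12.11 at P10 and 11.97 and 12.13 in Adult. It was the only member lower at P2 than at E18, by 0.32 (adjusted p = 0.0294). Hnrnpk, which binds poly(C) stretches, read 13.05 and 12.97 at E12, 13.01 and 13.03 at E14, 12.88 and 13.01 at E16, 12.58 and 12.37 at E18, 12.76 and 12.82 at P2, 12.74 and 12.96 at P10 and 12.42 and 12.34 in Adult. Its P10 arrays overlapped those of E16, and Adult minus E12 was −0.63 ± 0.10 (adjusted p = 0.000115), the smallest of the class. Of the other 7, Hnrnpu (−1.35), Ptbp1 (−1.13), Hnrnpa2b1 (−1.12), Hnrnpl (−1.08), Hnrnpab (−1.08), Hnrnph1 (−0.92) and Hnrnpa1 (−0.89) were lower in Adult. Ptbp1, a repressor of many exons used in neurons and muscle, fell by 0.67 between E16 and E18. Hnrnpa1 has 3 further probe sets shared with other loci, which were left out, and its E18 minus E16 difference was −0.38 (adjusted p = 0.00308).

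Among the other factors, on their brightest probe sets, the median fall was 1.41 in size. Their spread was the widest in E18 minus E16, from −1.46 (Snrpa1) to −0.01 (Sf3b2). In U2 snRNP, which recognises the branch point, and U2AF, all 8 genes fell, by between 0.34 and 1.98 from E12 to Adult, 6 of them also passing between E16 and E18. Snrpa1, encoding the A′ protein of U2, read 11.29 and 11.11 at E12, 11.08 and 11.10 at E14, 10.59 and 10.77 at E16, 9.21 and 9.22 at E18, 9.41 and 9.43 at P2, 9.29 and 9.48 at P10 and 9.22 and 9.22 in Adult. Its lowest time-point mean was at E18, and the Adult values lay close to it; E18 minus E16 was −1.46 ± 0.10 (adjusted p = 9.01e-08). Sf3a3, encoding a subunit of SF3A, read 10.87 and 10.80 at E12, 10.72 and 10.76 at E14, 10.24 and 10.44 at E16, 9.07 and 9.26 at E18, 9.38 and 9.30 at P2, 9.09 and 9.18 at P10 and 8.98 and 9.0 in Adult. Both Adult arrays lay below those of every earlier time point, by a difference from E12 of −1.84 ± 0.10 (adjusted p = 1.36e-09). Snrpb2, encoding the B″ protein of U2, read 11.56 and 11.28 at E12, 11.43 and 11.52 at E14, 11.03 and 11.33 at E16, 10.46 and 10.57 at E18, 10.32 and 10.34 at P2, 10.31 and 10.22 at P10 and 9.84 and 10.04 in Adult. It fell in small steps, by 0.66 at E18 (adjusted p = 0.000673), and its E12 arrays overlapped those of E14 and E16. Sf3b2, a subunit of SF3B, read 10.93 and 10.75 at E12, 10.85 and 10.83 at E14, 10.33 and 10.62 at E16, 10.47 and 10.45 at E18, 10.16 and 10.25 at P2, 10.18 and 10.38 at P10 and 10.47 and 10.53 in Adult. Its lowest time-point mean was at P2, and its E18 and E16 arrays overlapped; Adult minus E12 was −0.34 ± 0.11 (adjusted p = 0.0164). It did not pass without E12 replicate 1 (−0.25, adjusted p = 0.136), without Adult replicate 1 (−0.31, adjusted p = 0.0812) or when the arrays were quantile normalized again (−0.23, adjusted p = 0.0658). Sf3b3, another SF3B subunit, differed between Adult and E12 by −1.48, and Sf3b1, whose product contacts the branch point, by −0.45. For U2AF, which binds the 3′ splice site, U2af1 differed by −1.57 and U2af2 by −0.81.

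The U1, U5 and PRP19 genes split into larger and smaller falls. Snrnp70, encoding the 70K protein of U1, read 10.69 and 10.42 at E12, 10.59 and 10.63 at E14, 10.24 and 10.36 at E16, 10.16 and 9.88 at E18, 9.92 and 9.90 at P2, 9.60 and 9.59 at P10 and 9.71 and 9.84 in Adult. Its lowest time-point mean was at P10, and both E18 arrays lay below both E16 arrays. E18 minus E16 was −0.28 (adjusted p = 0.0754) and Adult minus E12 −0.78 ± 0.12 (adjusted p = 4.08e-05). These values are of its brightest probe set, and its probe sets disagreed in direction. Over all 4, E18 minus E16 ran from −0.32 to 0.66 and Adult minus E12 from −0.78 to 0.36. Prpf8, the largest U5 protein, read 11.83 and 11.76 at E12, 11.69 and 11.63 at E14, 11.18 and 11.24 at E16, 11.12 and 11.12 at E18, 10.95 and 10.97 at P2, 11.02 and 11.02 at P10 and 11.23 and 11.21 in Adult. Its step from E14 to E16 of −0.46 (adjusted p = 0.00175) was its largest, and its Adult arrays lay above those at P2 and P10 (Adult minus P10, 0.20, adjusted p = 0.0851). Eftud2, the U5 GTPase, fell by 0.78 between E14 and E16 (adjusted p = 0.000216) and by 1.03 between E16 and E18, and was 1.75 lower in Adult than at E12. Prpf19, a ubiquitin ligase of the activated spliceosome, fell by 1.55, and Prpf4b, a kinase of splicing proteins, by 0.58; Snrpc, a U1 protein, fell by 1.64.

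Of the helicases, Dhx9, an RNA helicase with roles in transcription and splicing, read 12.16 and 12.21 at E12, 12.09 and 12.11 at E14, 11.85 and 11.94 at E16, 10.58 and 10.63 at E18, 11.04 and 11.09 at P2, 10.95 and 10.96 at P10 and 10.49 and 10.39 in Adult. It fell by 1.29 ± 0.08 between E16 and E18 (adjusted p = 5.06e-08), rose by 0.46 at P2 (adjusted p = 0.00226) and fell by 0.51 from P10 to Adult (adjusted p = 0.000413). Dhx15, which takes apart the spliceosome after splicing, fell by 1.35 between E12 and Adult. Tia1, which binds U-rich sequence near weak 5′ splice sites, read 11.63 and 11.79 at E12, 11.54 and 11.48 at E14, 11.55 and 11.48 at E16, 10.68 and 10.59 at E18, 10.85 and 10.80 at P2, 10.73 and 10.69 at P10 and 9.76 and 9.69 in Adult. Its arrays hardly moved between E14 and E16, and its fall from P10 to Adult of 0.99 ± 0.09 (adjusted p = 3e-06) was the largest of all members at that step; Adult minus E12 was −1.98 ± 0.09 (adjusted p = 2.62e-10). Rbm8a, a core protein of the exon junction complex, fell by 1.18 over the course, Rbm17, which helps choose the 3′ splice site, by 1.11, and Rbm25 by 0.93.

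**Figure D4:**
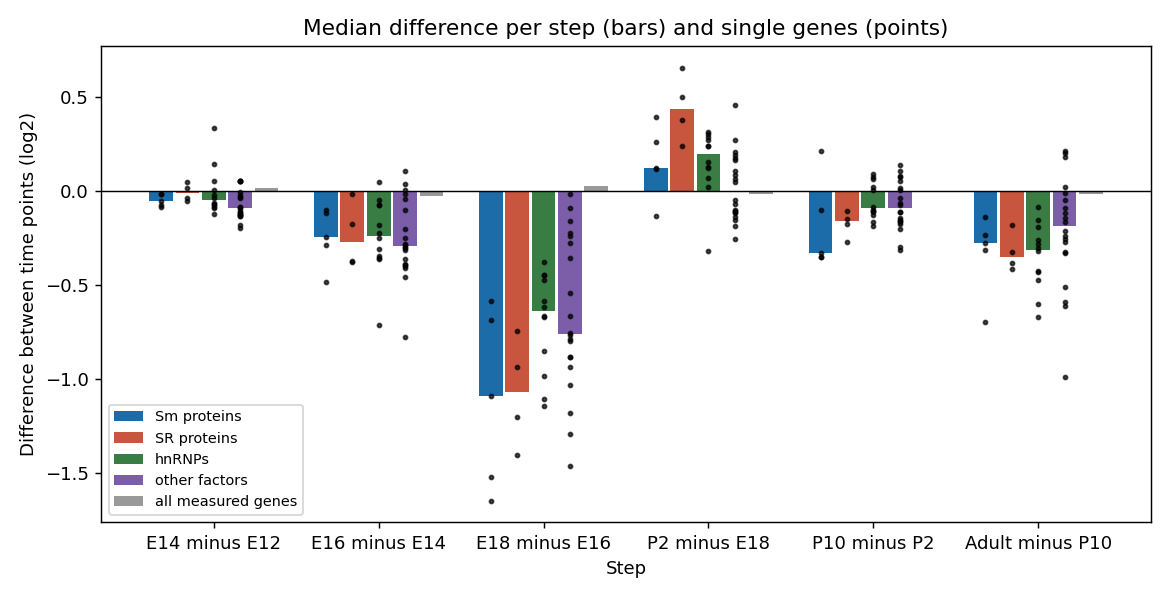
Difference between each time point and the one before it (log2, vertical axis), with bars for the median over the genes of a class and over 11663 measured genes and points for single members. The E18 minus E16 bars lie lowest, at −1.09 for Sm proteins, −1.07 for SR proteins, −0.64 for hnRNPs and −0.76 for other factors.

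The other steps were smaller. None of the 41 passed for E14 minus E12 (0.986% of measured genes lower and 5.12% higher). For E16 minus E14, 15 members were lower (15.3% of measured genes) and 0 higher, and 37 of 41 differences were negative; the number of lower calls was 3 without E16 replicate 1, 5 without E14 replicate 1 and 4 without E14 replicate 2. Over E16 minus E12, 21 members were lower (20.9% of measured genes), 7 without E16 replicate 1 and 8 without E12 replicate 1. Those 2 counts rest on single arrays, E16 replicate 1 among them. Of the 11663 measured genes, 1595 were higher at E16 than at E14, and 6304 had a negative difference. P10 minus P2 had 1 member lower, Snrpf (5.9% of measured genes), with −0.35 and an adjusted p of 0.0393, and no call without any one of the P2, P10 or E14 arrays. Adult minus P10 had 16 lower (21.4% of measured genes) and 0 higher, with 10 lower without P10 replicate 2 or without Adult replicate 1. Of the 11663 measured genes, 2471 were higher in Adult than at P10. Adult minus E18 had 17 lower and 1 higher (28.7% and 22.6% of measured genes). The rises at P2 numbered 3 without E18 replicate 1, without P2 replicate 1 or without P2 replicate 2. The median of the SR proteins at P2 minus E18 was 0.44, and those of the Sm proteins, hnRNPs and other factors were 0.12, 0.20 and −0.00. The class medians were not tested against each other.

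Different probe sets of one gene can read different transcript ends, so they were set side by side. The members have 138 probe sets, of which 122 had Max above 7; 115 of these were lower in Adult than at E12 and 1 higher, and 101 were lower and 1 higher at E18 than at E16. Of the 20248 probe sets on the array with 1 gene symbol and Max above 7, 45.8% were lower and 35.6% higher in Adult, and 31.7% lower and 30.5% higher at E18. In 32 genes with at least 2 such probe sets, the one with the highest mean changed less than the median of the others in 20 for Adult minus E12 and in 21 for E18 minus E16. Snrnp70 was the gene whose probe sets passed in opposite directions, with −0.78 on the brightest and 0.36 on the faintest of its 4 (adjusted p = 0.0057, with a Max of only 7.03); its second brightest probe set rose by 0.66 between E16 and E18 (adjusted p = 0.000357). Srsf2 ranged from −2.42 to 0.08 over 4 probe sets, the last of which had an adjusted p of 0.565 and an E18 minus E16 difference of −0.11 (adjusted p = 0.481). Ptbp1 had −1.13 and 0.14 (adjusted p = 0.366). Sf3b2, the least changed member by its brightest probe set, had 5 from −1.45 to −0.34 for Adult minus E12 and from −0.55 to −0.01 for E18 minus E16, and Hnrnpa1 had 3 from −2.21 to −0.89; in both the brightest changed least. Sf3b1 had 4 probe sets from −1.07 to −0.45, and 3 of them passed between E16 and E18, the exception being the one that stands for the gene. With the mean over all probe sets of a gene in place of the brightest, Sf3b1 (−0.49), Rbm25 (−0.42) and Prpf4b (−0.32) passed for E18 minus E16, while Hnrnpl (−0.21, adjusted p = 0.0626) and Rbm17 (−0.17, adjusted p = 0.217) did not. For Adult minus E12, Snrnp70 then had −0.05 (adjusted p = 0.594).

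**Figure D5:**
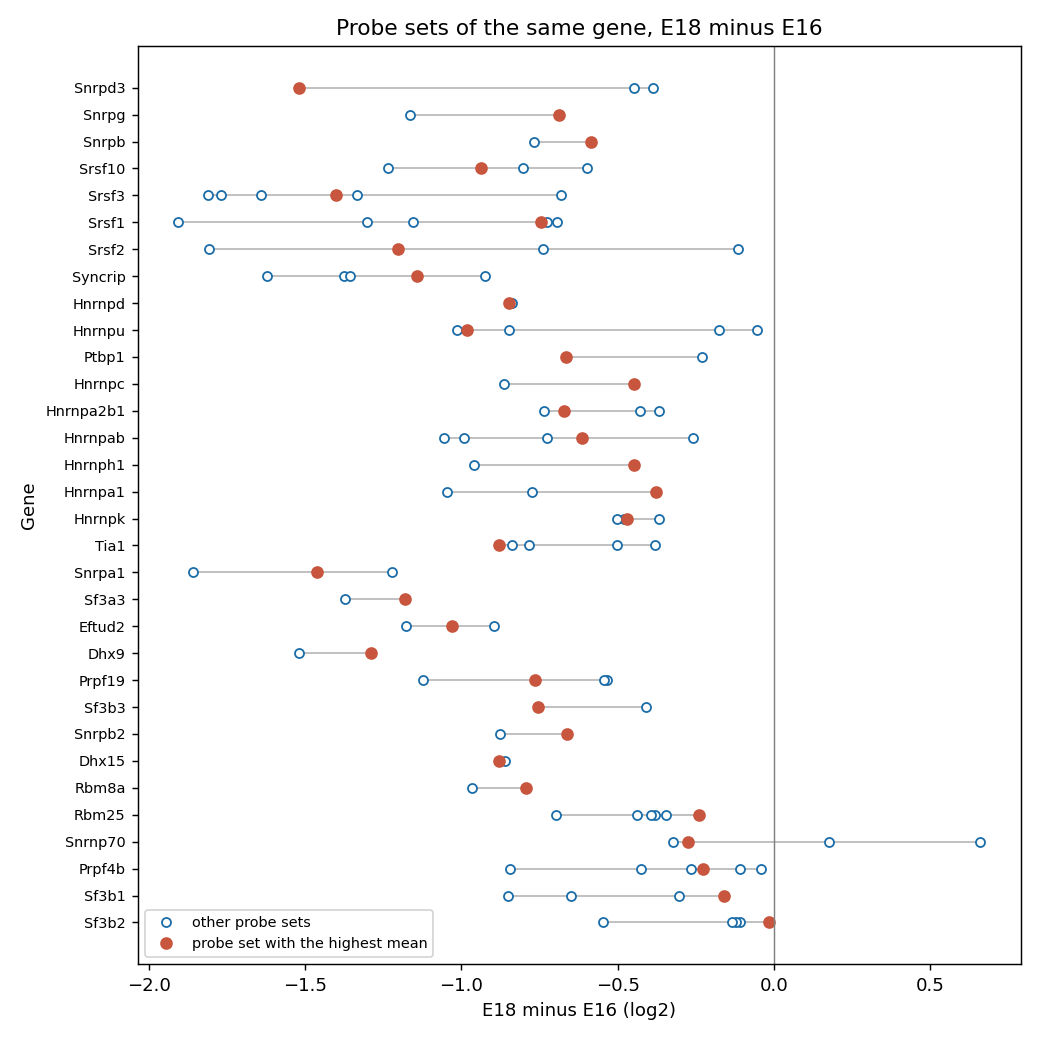
E18 minus E16 (log2, horizontal axis) for each probe set with Max above 7 of the genes that have at least 2 (vertical axis); the filled point is the probe set with the highest mean, open points are the others. Snrnp70 has probe sets at 0.66 and 0.18, and the points of the other genes lie below 0.

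Genes of the same process outside the 45 were taken from 6 lists by function. Of 133 measured, 107 were lower and 9 higher in Adult than at E12 (median −0.86), beside 42.5% and 39.5% of measured genes. The core spliceosome list had 46 of 53 lower and 3 higher (median −0.89), the other hnRNPs 14 of 16 lower (−0.87) and the other SR family proteins and kinases 13 of 19 (−0.68). The snRNP assembly factors had 13 of 14 lower (−1.41), the exon junction and export factors 10 of 12 (−1.23), and a list of splicing regulators 11 of 19 lower and 6 higher (−0.37). This regulator list mixes tissue-restricted genes such as Nova2 with widely expressed genes such as Elavl1 and Khdrbs1. At E18 against E16, 72 of the 133 were lower and 13 higher (median −0.36), beside 30.7% and 33.1% of measured genes. The snRNP assembly factors had 13 of 14 lower (median −0.78), the core spliceosome list 32 of 53 lower and 3 higher (−0.39), the other hnRNPs 10 of 16 lower (−0.40) and the exon junction and export factors 7 of 12 lower and 1 higher (−0.54). The other SR family proteins and kinases had 4 of 19 lower and 3 higher (−0.08), and the regulator list 6 lower and 6 higher (−0.09). Lsm2, of the ring on the U6 RNA, read 9.34 and 9.38 at E12, 8.51 and 8.61 at E16, 6.76 and 6.71 at E18, and 6.47 and 6.04 in Adult, the largest fall of the lists (Adult minus E12, −3.10, adjusted p = 7.54e-11; E18 minus E16, −1.83). Its E18 and Adult arrays lay below 7, and its P2 mean was 7.12. Prmt5, the methyltransferase that modifies Sm proteins, fell by 2.41 (adjusted p = 2.27e-11), and Alyref, an export adaptor, by 2.39 (adjusted p = 2.33e-10), of which 1.76 came between E16 and E18. Nova2 (1.46, adjusted p = 2.63e-07) and Mbnl2 (1.34, adjusted p = 2.68e-08), regulators of tissue-restricted exons, and Syf2 (1.21, adjusted p = 3.74e-07), a protein of the active spliceosome, were higher in Adult than at E12. Between E16 and E18, Rbms1 rose by 0.77 (adjusted p = 1.17e-05) and Casc3, of the exon junction complex, by 0.66 (adjusted p = 0.000859).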

How the data were processed

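RNA of pooled whole lungs had been hybridised to 14 Affymetrix mouse whole-genome arrays, and the deposited log2 values made by the authors were used as they are. Different algorithms are credited with them: Robust Multichip Average in Partek Genomics Suite 6.4 by the study's methods, and GCRMA by the deposited processing notes, so which one was run is not settled. GCRMA corrects background by probe sequence, which mainly affects dim probe sets. The 64 control probe sets were left out, leaving 45037. A single gene symbol was given for 34945 of them, several for 932 and none for 9160, and only those with a single symbol were named. Symbols were checked by Entrez identifier against a RefSeq table of GRCm38.p6 (34741 found, 0 differing).

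All probe sets entered a single limma 3.58.1 fit (R 4.3.3) that estimated the 7 time-point means, with moderation (7 residual and 6.04 prior degrees of freedom). The adjusted p is by Benjamini-Hochberg across every probe set fitted. Dynamic genes had an F test at adjusted p under 0.05, Max above 7 and a range of time-point means above 1.2. The precision is limited by the 2 arrays of each time point; the median SD between arrays was 0.087 for members and 0.098 for measured genes. The fit was tested on simulated data. Alternatives were other ways to represent a gene, filters, scalings, tests and leaving out each array.

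Values in every array are given for the 3 largest and the 1 smallest Adult minus E12 difference in each class, the 5 largest falls in E18 minus E16, the 3 largest rises and falls in P2 minus E18 and Adult minus P10, and the gene with probe sets in opposite directions. The members and lists were chosen with earlier results of these data known. Promoters were RefSeq's first listed start of each gene.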

Additional observations from a re-analysis of the deposited data

How the results depend on the processing

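Over the alternatives run for Adult minus E12, 855 of 860 member values kept direction and call, 4 lost the call and 1 reversed; for E18 minus E16, 849 of 860 kept both, 4 lost the call and 7 gained it. The reversal was Srsf2, Adult minus E12, at 0.0826 (adjusted p = 0.565) when only probe sets without the suffix _s_at or _x_at were used, which left another probe set for the gene. Dynamic members numbered 41 with the adjusted p alone. When calls also required a difference larger than 1.2 and the higher of both means over 7, 23 members were lower in Adult than at E12 and 6 at E18 than at E16. The median of Adult minus E12 was −1.22 with the mean over all probe sets of a gene and −1.25 after quantile normalization again. With the mean over probe sets, 2 members were lower at P2 than at E18, 6 lower at P10 than at P2 and 1 higher in Adult than at P10. Without moderation, 2 were lower at P2 than at E18, 1 higher in Adult than at P10 and 2 higher in Adult than at E18. Without the suffixed probe sets, 3 were lower at P10 than at P2 and 0 higher in Adult than at E18. With only probe sets of a mean above 6 fitted, 3 were lower at P10 than at P2 and 1 higher in Adult than at P10, and with each array centred on its median 0 were lower at P10 than at P2. The causes were not tested.

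Leaving out each array in turn gave 24 to 27 dynamic members, 40 to 41 lower and 0 to 0 higher in Adult than at E12 (median −1.38 to −1.29), and 34 to 37 lower and 0 to 0 higher at E18 than at E16 (median −0.81 to −0.67). It gave 0 to 0 lower and 0 to 0 higher at E14 than at E12 (median −0.08 to −0.02), and 3 to 16 lower and 0 to 0 higher at E16 than at E14 (median −0.33 to −0.20). It gave 0 to 1 lower and 3 to 7 higher at P2 than at E18 (median 0.12 to 0.16), and 0 to 1 lower and 0 to 0 higher at P10 than at P2 (median −0.12 to −0.07). It gave 10 to 17 lower and 0 to 0 higher in Adult than at P10 (median −0.30 to −0.24), 7 to 21 lower and 0 to 0 higher at E16 than at E12 (median −0.33 to −0.22), and 14 to 17 lower and 0 to 1 higher in Adult than at E18 (median −0.31 to −0.21). The single call at P2 (Hnrnpc) was lost without any one of the E18 or P2 arrays, and the rise of Srsf2 in Adult over E18 was lost without E18 replicate 2, Adult replicate 1 or Adult replicate 2.

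Arrays of the same number did not deviate together (correlation −0.18 to 0.077, median −0.014, over 21 pairs of time points). With the replicate number as a block, 41 members were lower in Adult than at E12, 35 at E18 than at E16, 14 at E16 than at E14, 19 at E16 than at E12 and 16 in Adult than at P10, 5 were higher at P2 than at E18, and 0 were lower at P10 than at P2.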
